A study of Taeniopygia guttata with 48 samples.

Results

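The 100 most abundant genes were the 100 of 17475 gene rows with the highest mean FPKM over 24 brain RNA libraries of the zebra finch. FPKM counts the sequenced fragments of a gene, divided by transcript length and by the mapped fragments of the library. The genes are called below by their abundance rank, from rank 1 at a mean of 20318 FPKM to rank 100 at 1075 FPKM. They were chosen by their mean FPKM over all libraries, so their overall level is a description and was not tested. The deposited table carries identifiers of the Ensembl type without symbols, and 0 of the 17475 could be matched to a name, so roles of single genes are not given. For the same reason the labelled brain regions could not be checked against marker genes.

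Eggs were injected on the morning of laying with peanut oil (5 µl) that held 500 pg of testosterone, or with oil alone as the control. Tissue came from adult birds of both sexes, as 1 mm punches from 50 µm frozen sections, so a punch can hold neighbouring tissue. The regions were the hypothalamus, which governs hormone release and drives such as feeding and reproduction, and the nucleus taenia of the amygdala, a part of the avian amygdala tied to social behaviour. Male testosterone, male control, female testosterone and female control birds were each sampled in both regions, giving 8 groups of 3 libraries. The labels do not say that each library is a separate bird or whether 1 bird gave tissue of both regions, so the p-values below speak of the spread among the samples, which may be technical. If 1 bird gave both regions, tests of sex and treatment over both regions would count it more than once. Their p-values would then tend to be too small and their intervals too narrow. In bulk tissue, fewer cells of a type and less RNA per cell cannot be told apart.

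In vertebrate brain a small number of genes usually supplies a large part of the messenger RNA. Transcripts of the mitochondrial genome, ribosomal proteins, translation factors, tubulins and actins, ferritin, calmodulin, synaptic and secretory proteins, and the myelin and glial proteins are commonly among them. Because FPKM is scaled to the fragments of the whole library, a large value of a few genes can lower the values of others. Total FPKM was not the same in all libraries here. The library with the largest share in the 100 genes also had the most FPKM outside them, 1040385 against 658149 to 839228 in the others. Its typical gene was nevertheless lower, with a median of 14.9 FPKM over the genes of mean FPKM at least 1, against 19.3 to 21.4 in the others. Whether its high values lowered that median was not tested.

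A single library, labelled female testosterone hypothalamus replicate 3, stood apart from the other 23. Its total FPKM was 1476513, against 808096 to 1158298 in the others. Its mean Pearson r with the other libraries was 0.757 across the 13612 genes of mean FPKM at least 1, against 0.844 to 0.915. The 0.844 was that of male testosterone nucleus taenia replicate 2, and the next lowest was 0.885 in male control nucleus taenia replicate 1. On the 126 genes called higher in male than female nucleus taenia, none of which was among the 100, its mean log2 value less the 24-library mean was 0.492, inside the 0.189 to 0.730 of the 6 male hypothalamus libraries and above the −0.619 to −0.301 of the other 5 female ones. Absolute depth is unknown, and a rough relative depth ran from 0.585 to 1.41 times the typical library, with 0.773 in this library. Only 29.3% of 276 pairs of libraries lay within 3% of that fit, so these depths are uncertain.

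Levels differed steeply along the ranking. Rank 1, ENSTGUG00000016331, had 18.9 times the mean FPKM of rank 100 and alone made up 8.80% of the summed mean FPKM of the 100 genes. Ranks 1 to 10 held 32.2% of that sum, and 25 ranks held 50%. A mean of at least 2000 FPKM was reached by 35 of the genes. The median mean FPKM over the 13612 genes was 22.1. At the edge of the list, ranks 99 and 100 had means of 1079 and 1075 FPKM, and the next genes below had 1074 and 1071 FPKM. Ranked by the median instead of the mean, 90 of the 100 would still be listed, and without the library that stood apart 94 would be.

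The list was not the same in every library. Between 67 and 86 of the 100 were among a library's own top 100 in 23 libraries, and 60 were in female testosterone hypothalamus replicate 3. In all 24 libraries 24 genes held a place in the library's own top 100, and 33 did so in the 23 others.

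The 100 genes, 0.572% of the rows, held 18.6% to 29.5% of the total FPKM of a library (mean 23.2% ± 2.73, SD, n = 24). The highest share, 29.5%, was that of the library labelled female testosterone hypothalamus replicate 3, and the next was 27.5% in male testosterone nucleus taenia replicate 2. The lowest were 18.6% in female testosterone hypothalamus replicate 1 and 18.6% in male testosterone hypothalamus replicate 1. A library's own high values helped to choose the genes, which can raise the share of a library with extreme values.

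The share of rank 1 alone varied widely. It took 0.0219% of total FPKM in the library that stood apart and 0.235% to 5.23% in the other 23. Ranks 11 to 100 held 13.2% to 17.7% of total FPKM in those 23 libraries and 21.7% in the one that stood apart. Without rank 1 the remaining 99 genes held 17.9% to 23.96% in the 23 libraries, and 29.5% in the one that stood apart.

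**Figure D1:**
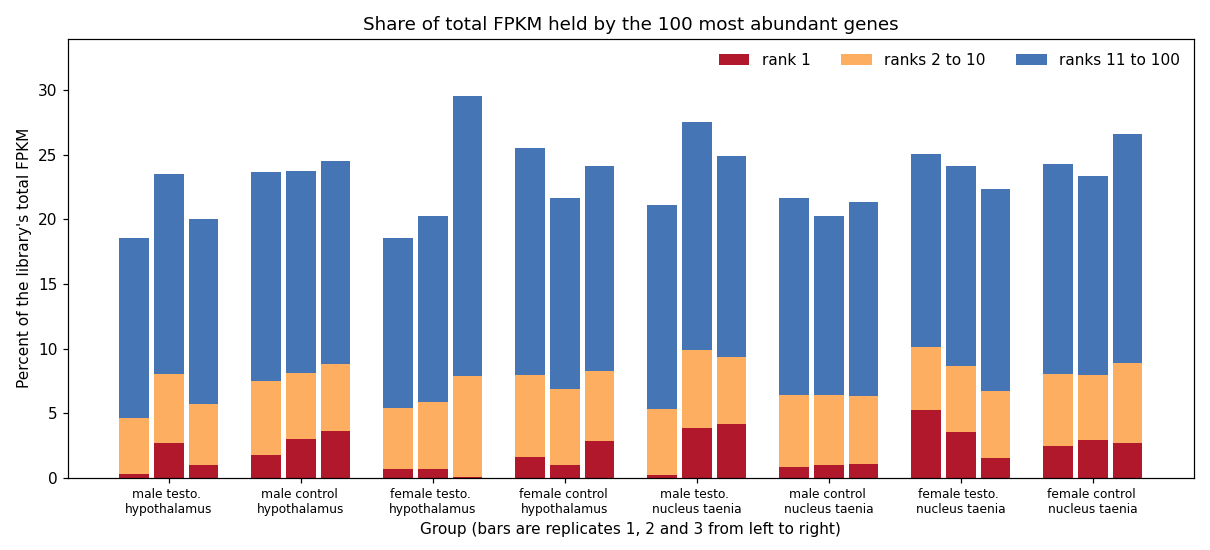
Percent of each library's total FPKM held by the 100 genes, split into rank 1, ranks 2 to 10 and ranks 11 to 100, for the 24 libraries in 8 groups of 3. The tallest bar is female testosterone hypothalamus replicate 3 at 29.5%, in which rank 1 is almost absent, and the other bars end between 18.6% and 27.5%.

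Region, sex and treatment did not separate the share beyond the spread of the libraries. The hypothalamus libraries held 22.8% ± 3.18 and the nucleus taenia libraries 23.6% ± 2.28 (SD, n = 12 each). That difference of −0.729 percentage points had an adjusted p of 0.715 in a two-sided exact permutation test within sex and treatment. Males held 22.6% ± 2.52 and females 23.8% ± 2.91 (SD, n = 12 each), a difference of −1.22 points with an adjusted p of 0.715 by the same exact test. Testosterone libraries held 22.97% ± 3.47 and control libraries 23.4% ± 1.86 (SD, n = 12 each), with an exact permutation p of 0.715. Adjustment was over these 3 comparisons. The treatment difference of −0.437 points was −1.28 points without female testosterone hypothalamus replicate 3 and 0.0925 points without female testosterone hypothalamus replicate 1.

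In males the treatment difference in share had opposite signs in the regions. In the male hypothalamus the testosterone libraries held 18.6%, 23.5% and 20.01%, and the control libraries 23.7%, 23.8% and 24.5%. All 3 testosterone values lay below the control values, and the means differed by −3.27 points. In the male nucleus taenia the testosterone libraries held 21.1%, 27.5% and 24.9%, and the control libraries 21.7%, 20.2% and 21.4%. These groups overlapped through testosterone replicate 1, and the means differed by 3.42 points. The difference between the regions in the male treatment difference was 6.69 points (two-sided exact permutation p = 0.035), and 0.14 after adjustment over the 4 such tests, which were added after the shares had been seen, so it did not pass. Treatment labels were exchanged within each region. The null of these tests was therefore no treatment effect in either region, which is not the same as an equal effect in both. In females the treatment difference was −0.998 points in the hypothalamus and −0.892 points in the nucleus taenia, and the regional difference was 0.106 points (exact permutation p = 0.995).

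Among the 10 most abundant genes, ranks 6 and 7 were the steady ones. Rank 6 ran from 2981 FPKM in male testosterone nucleus taenia replicate 1 to 8323 FPKM in replicate 2 of the same group, with a median of 5110.0 FPKM. Rank 7 ran from 2427 to 7063 FPKM around a median of 4679 FPKM. Their highest values were under 3 times their lowest, the limit used here to call a gene steady.

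Ranks 2, 3 and 10 owed most of their range to the library that stood apart. Rank 2 was at 29652 FPKM there and at 6086 to 15661 FPKM in the other 23. Rank 3 was at 23670 FPKM there and at 5452 to 12722 FPKM elsewhere. Rank 10 was at 10274 FPKM there and at 2537 to 4293 FPKM elsewhere, and without that library its within-group SD of 0.157 was the lowest of the first 10. Rank 9 was at 24101 FPKM there and at 518 to 5753 FPKM elsewhere, with the 518 FPKM in female testosterone hypothalamus replicate 1.

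Ranks 4, 5 and 8 varied across many libraries. Rank 4 ran from 2773 to 11497 FPKM, and rank 8 from 1244 FPKM in female control hypothalamus replicate 3 to 8972 FPKM in male control hypothalamus replicate 1. Libraries of 1 group differed widely in rank 8. In the female control hypothalamus, for example, they were 6266, 7813 and 1244 FPKM, and in the male control hypothalamus 8972, 2694 and 1594 FPKM. Rank 5 is described with the treatment comparison.

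Rank 1 was the most variable of the 10. Its values were 16133, 28681 and 37161 FPKM in the male control hypothalamus and 2422, 28100 and 8528 FPKM in the male testosterone hypothalamus. In the female hypothalamus they were 15549, 9278 and 26979 FPKM in controls and 5123, 5474 and 324 FPKM with testosterone, so the female groups did not overlap. In the nucleus taenia the male testosterone libraries had 2009, 44647 and 45751 FPKM and the male controls 7501, 8853 and 10055 FPKM. The female testosterone libraries had 53759, 35954 and 13750 FPKM and the female controls 24642, 27649 and 29309 FPKM. The male testosterone group of the nucleus taenia alone thus ran from 2009 to 45751 FPKM, while the controls of that region lay close together within each sex. Over all groups the log2 difference of testosterone from control was −0.88 (SE 0.56) and that of hypothalamus from nucleus taenia was −1.001 (SE 0.56), with limma adjusted p of 0.691 and 0.787.

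**Figure D2:**
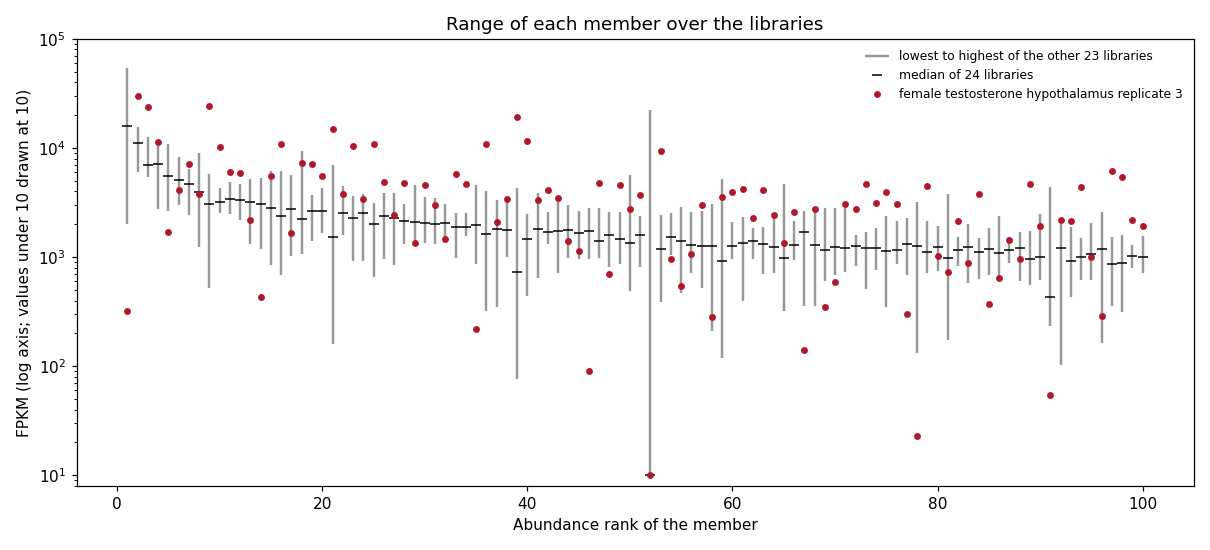
FPKM on a log axis for each of the 100 genes by rank. Grey lines run from the lowest to the highest of the 23 libraries, black dashes mark the median of all 24, and red points mark female testosterone hypothalamus replicate 3, which lies above every other library for 51 genes and below for 16.

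Of the 100 genes, 18 were steady, with the highest value under 3 times the lowest over 24 libraries. Another 28 were swinging, with the highest at least 10 times the lowest or a value listed at 0, and 54 lay between. Among all 13612 tested genes 21.7% were steady and 35.0% swinging, and of the 100 genes ranked next below, 24 were steady and 23 swinging. Without female testosterone hypothalamus replicate 3, the counts for the 100 genes became 39 steady and 15 swinging, beside 35.5% and 23.2% of all tested genes. The median SD of log2(FPKM + 1) within groups was 0.523 for the 100 genes and 0.504 for all tested genes, and without that library 0.397 and 0.432.

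The steady genes lay anywhere between rank 6 and rank 100, and 9 of the 18 were in the upper 50 ranks. Together they held 3.36% to 4.31% of total FPKM in a library. The swinging genes lay between ranks 1 and 98, and 13 of the 28 were in the upper 50. Together they held a median of 7.12% of total FPKM, beside 3.98% for the steady ones.

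The 5 genes with the lowest within-group SD were ranks 99, 12, 87, 54 and 32. Rank 87 had the narrowest range of all 100 genes, from 878 to 1529 FPKM around a median of 1172 FPKM, so its highest value was 1.74 times its lowest. Rank 99 was at 2199 FPKM in the library that stood apart and at 796 to 1286 FPKM in the others. Rank 12 ran from 2208 to 5854 FPKM, rank 54 from 953 to 2522 FPKM and rank 32 from 1459 to 3046 FPKM. Ranks 12 and 99 had their highest value in the library that stood apart and ranks 32 and 54 their lowest.

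The 5 genes with the highest within-group SD were ranks 52, 39, 78, 91 and 1. Rank 52 was the only one of the 100 listed at 0 in any library, and it was at 0 in 16 of the 24. It reached 22488 FPKM in male testosterone nucleus taenia replicate 2, 7081 FPKM in male control hypothalamus replicate 1, 4655 FPKM in male control nucleus taenia replicate 1 and 2540 FPKM in female control nucleus taenia replicate 2. It was at 242 FPKM in male testosterone hypothalamus replicate 1 and at 29.3 to 44.4 FPKM in the other 3 libraries above 0. No group had all of its libraries above 0. The median of this gene was 0 FPKM, so its place of 15417 by the median is arbitrary among the genes tied at 0. Its place in the list rests on these few libraries.

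Rank 39 was at 19427 FPKM in the library that stood apart and at 77.1 to 4273 FPKM in the others. Within groups it ran from 77.1 to 4181 FPKM among the 3 female controls of the hypothalamus and from 118 to 4273 FPKM among the 3 male testosterone libraries of the nucleus taenia. Rank 91 ran from 54.6 FPKM in the library that stood apart to 4383 FPKM in female control hypothalamus replicate 2. Its mean was 2.67 times its median of 427 FPKM, and 8 of the 24 libraries lay above the mean of 1141 FPKM. Rank 78 ran from 23.1 FPKM in the library that stood apart, and 133 to 164 FPKM in 3 others, up to 3222 FPKM in male control hypothalamus replicate 3.

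Extreme values clustered in few libraries. Female testosterone hypothalamus replicate 3 held the highest value of 51 genes and the lowest of 16, and its ratio to the median of the others had a median of 2.01 and ran from 0.0165 for rank 78 to 28.5 for rank 39. In 18 genes it was over 2 times the next highest library. That library entered the mean that chose the genes, which favours genes high in it, and 6 of the 100 left the list without it. The counts of extreme values are not given over all tested genes. Of the 28 swinging genes, 14 had their highest and 7 their lowest value in that library. Female testosterone hypothalamus replicate 1 held the lowest value of 31 genes and the highest of 0. Female control nucleus taenia replicate 3 held the highest value of 13 genes.

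**Figure D3:**
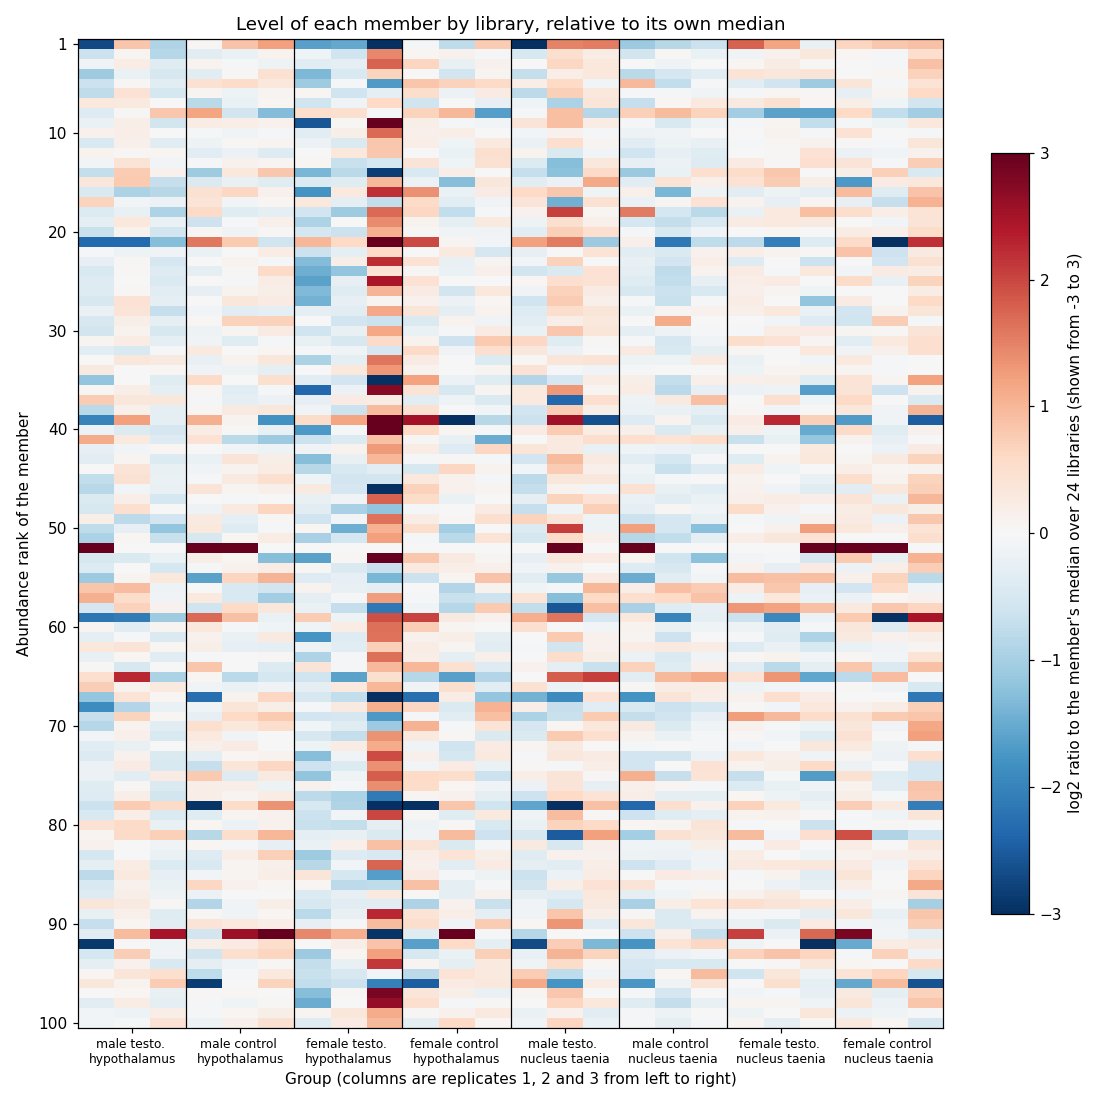
Log2 ratio of (FPKM + 1) to each gene's median over 24 libraries, with genes in rows by rank and libraries in columns by group. The third column of the female testosterone hypothalamus is strongly coloured in most rows, and rows 21 and 59 share 1 pattern, as do rows 67 and 78.

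Several sets of the 100 genes varied together across libraries. The correlations below are of log2(FPKM + 1) over the 23 libraries without the one that stood apart, and are descriptions without a test. The points share their scaling to library totals. Over the 4950 pairs the median r was 0.172, and 19 pairs reached 0.9. With all 24 libraries 60 pairs did, so many high values rested on that 1 library. Pairs of at least 0.9 linked 28 of the genes into 11 sets, 10 of them a pair or a trio in which every r was at least 0.877.

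The tightest pair was ranks 21 and 59, with r = 0.986. In male control hypothalamus replicates 1 to 3, rank 21 was at 4574, 2627 and 1010 FPKM and rank 59 at 3006, 1702 and 805 FPKM. In female control nucleus taenia replicates 1 to 3, rank 21 was at 2295, 160 and 6961 FPKM and rank 59 at 1594, 118 and 5167 FPKM. Over the 23 libraries the highest value was 43.4 times the lowest for rank 21 and 43.7 times for rank 59. In the library that stood apart rank 21 was at 15012 and rank 59 at 3535 FPKM, and r over all 24 was 0.974. Whether these are near-identical copies that share reads could not be examined without their sequences.

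Ranks 67 and 78 formed another tight pair, with r = 0.954, and only ranks 21 and 59 and ranks 25 and 98 (r = 0.964) had a higher r over these libraries. Where rank 78 was lowest among the 23 libraries, at 133 FPKM in male testosterone nucleus taenia replicate 2, rank 67 was at 453 FPKM, and where rank 78 was highest, at 3222 FPKM, rank 67 was at 2628 FPKM. This pair went against the first: ranks 78 and 21 had r = −0.66. The pair of ranks 18 and 50 had r = 0.945. The largest set held 7 genes, ranks 25, 26, 63, 73, 89, 97 and 98, with a median r of 0.876 and a lowest of 0.673. Rank 1 was most like rank 4 (r = 0.845) and most unlike rank 34 (r = −0.71).

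**Figure D4:**
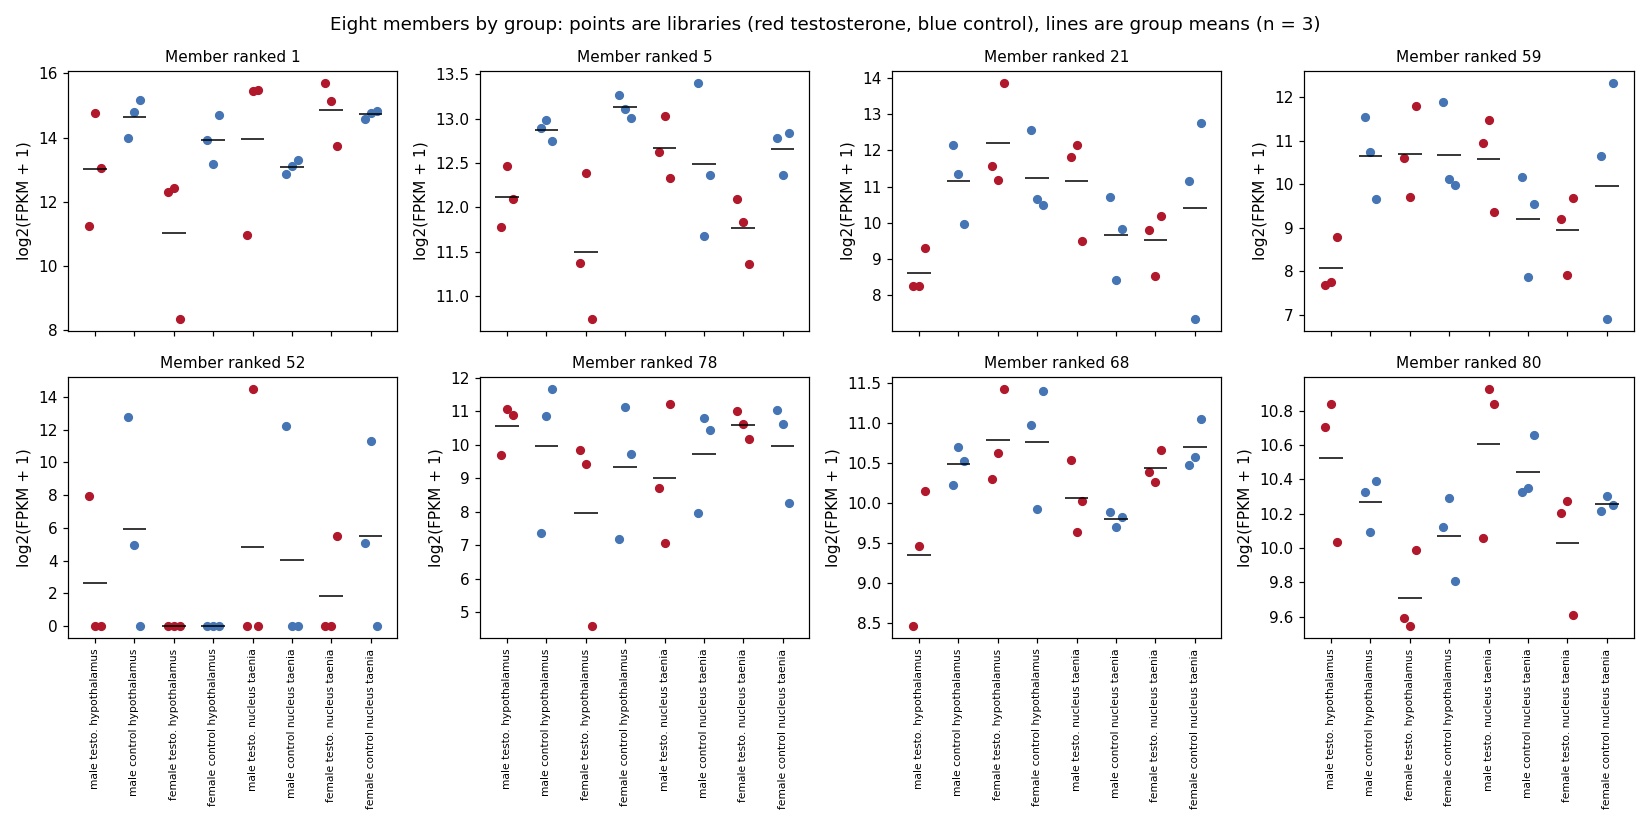
Log2(FPKM + 1) of the genes ranked 1, 5, 21, 59, 52, 78, 68 and 80 in each of the 8 groups, with 1 point per library (red for testosterone, blue for control), a line at the mean of the 3 libraries, and a separate vertical scale for each gene. Ranks 21 and 59 show the same order of points, and rank 52 is at 0 in 16 of 24 libraries.

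Most of the variation of the 100 genes lay within groups. Libraries of the same group accounted for a median of 73.4% of a gene's sum of squares of log2(FPKM + 1), where 69.6% of the degrees of freedom lay within groups. The medians for region, sex and treatment were 1.897%, 2.79% and 2.44%, each with 4.35% of the degrees of freedom. Over all tested genes the within-group median was 66.2% and the other 3 were 2.74%, 3.51% and 2.99%. This split was not repeated without the library that stood apart, which also helped to choose the 100 genes. The related within-group SD was higher for the 100 genes with that library (0.523 beside 0.504 for all tested genes) and lower without it (0.397 beside 0.432).

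Hypothalamus and nucleus taenia were compared over 12 libraries each. By limma with Benjamini-Hochberg adjustment over 13612 genes, 0 of the 100 genes passed an adjusted p of 0.05, as did 0% of all genes. At an unadjusted p under 0.05 stood 2 of the 100, between 0 and 7 when 1 library was left out, and 6.28% of all genes. The median log2 difference of hypothalamus from nucleus taenia was −0.06 for the 100 genes and −0.02 for all. For the typical gene of the 100 the 95% interval reached 0.448 (1.36-fold) to either side of the difference, beside 0.425 for all genes. For 83 of the 100 it lay inside a 2-fold difference in both directions, as for 82.1% of all genes.

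The 2 genes with the lowest unadjusted p for region were ranks 65 and 77. Rank 65 ran from 318 to 4715 FPKM around a median of 604 FPKM in the hypothalamus, and from 332 to 4116 FPKM around a median of 1599 FPKM in the nucleus taenia (log2 difference −0.88, SE 0.40, limma adjusted p = 0.775). Rank 77 ran from 302 to 1531 FPKM around 1241 FPKM and from 858 to 2305 FPKM around 1321 FPKM (log2 difference −0.39, SE 0.18, limma adjusted p = 0.775). The regions overlapped over most of their ranges for both. For 0 of the 100 genes did the regions not overlap, as for 0% of all genes.

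Males and females were also compared over 12 libraries each, with the regions counted as separate samples. In this comparison 347 of 13612 genes, or 2.55%, passed limma's adjusted threshold, and 0 of the 100 did, with 4 at an unadjusted p under 0.05 beside 12.8% of all genes. The library that stood apart was counted as female here, by its label. Leaving out 1 library gave 281 to 414 genes past the threshold, with the 414 reached without the library that stood apart. The smallest adjusted p among the 100 was 0.062. The median log2 difference of male from female was −0.10 for the 100 genes and −0.01 for all. Of the 100, 67 were lower in males and 33 higher, while 47.8% of all genes were higher. Without female testosterone hypothalamus replicate 3 the median of the 100 was −0.01, and without replicate 1 of that group it was −0.16. The 4 at an unadjusted p under 0.05 became 3 to 19 when 1 library was left out, with the 19 reached without that replicate 1, where 2357 of 13600 genes stood at such a p.

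Rank 68, ENSTGUG00000008243, had the lowest p for sex. In males it ran from 353 to 1660 FPKM around a median of 995 FPKM, and in females from 969 to 2744 FPKM around 1550 FPKM. Only the lower part of the male range lay clear of the females, and the log2 difference was −0.74 (SE 0.20, limma adjusted p = 0.062). The highest female value was that of the library that stood apart. The gene passed when the replicate number was a block (limma adjusted p = 0.0333) and without any 1 of 4 libraries, which were male testosterone hypothalamus replicate 3, male testosterone nucleus taenia replicate 1, female testosterone hypothalamus replicate 1 and female control hypothalamus replicate 2. The last of these held the lowest female value, and leaving out such a value favours a pass. Rank 68 did not pass in the 20 other single omissions or under the 6 other settings.

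Rank 80, ENSTGUG00000006670, ran from 1046 to 1942 FPKM around a median of 1322 FPKM in males, and from 746 to 1261 FPKM around 1144 FPKM in females. The log2 difference of male from female was 0.45 (SE 0.14, limma adjusted p = 0.109). It passed with quantile-normalized values (limma adjusted p = 0.024) and without male testosterone hypothalamus replicate 3 or male testosterone nucleus taenia replicate 1. These libraries held the lowest male values, 1046 and 1064 FPKM, and leaving out such values favours a pass. Rank 80 did not pass in the 22 other single omissions or under the 6 other settings. The ranges overlapped between 1046 and 1261 FPKM.

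**Figure D5:**
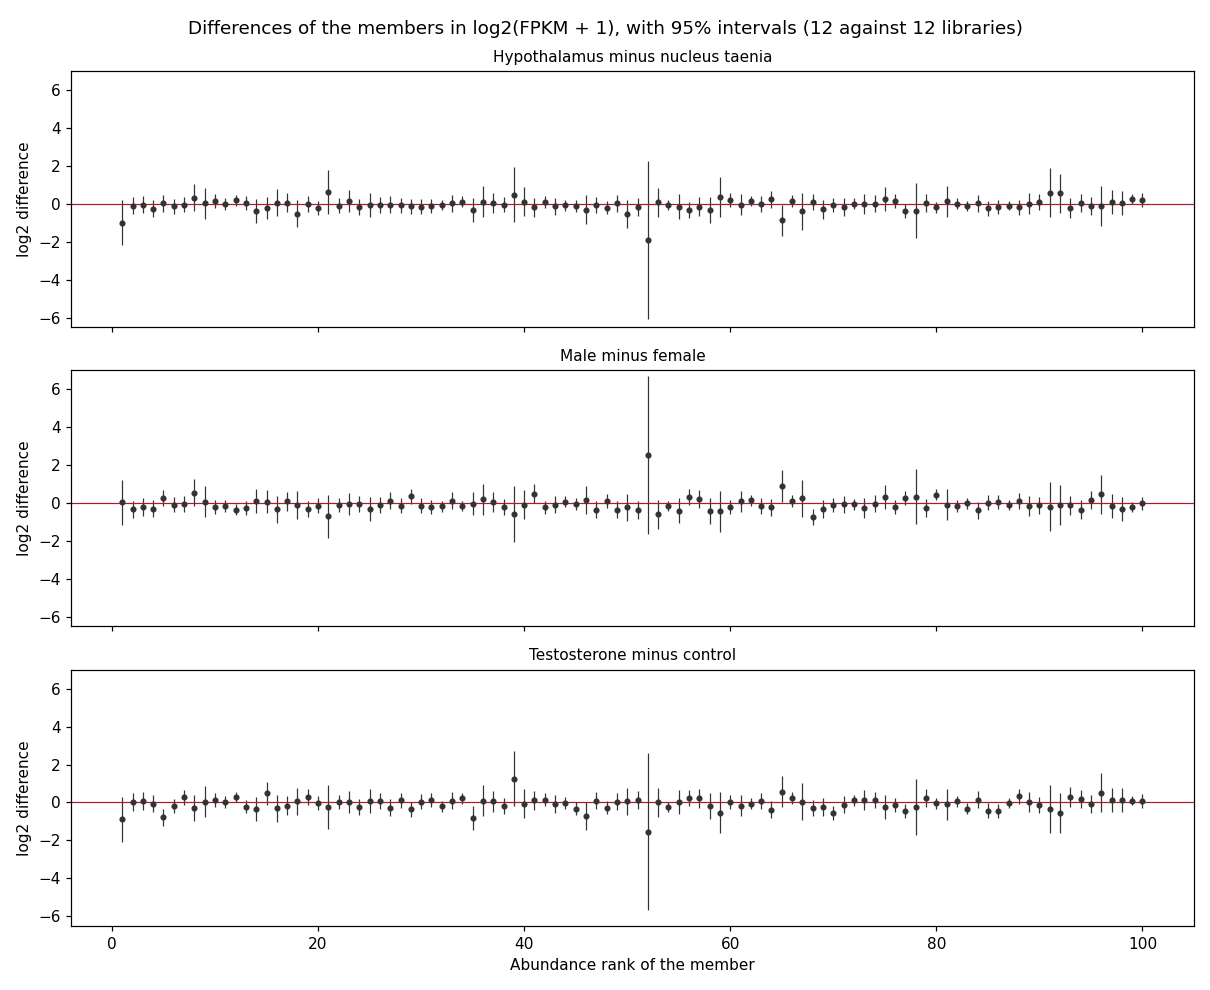
Log2 differences of the 100 genes by rank, with 95% intervals, for hypothalamus minus nucleus taenia, male minus female and testosterone minus control, each over 12 against 12 libraries. Most points lie near 0, with a median half-width of 0.448, and rank 52 has by far the widest interval.

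Within the nucleus taenia, 134 of 13551 genes, or 0.989%, differed between 6 male and 6 female libraries by limma's adjusted p, and 0 of the 100 did. At an unadjusted p under 0.05 stood 12 of the 100 beside 10.7% of all genes, and leaving out 1 library gave 8 to 17 of the 100. Rank 69 ran from 599.9 to 2020 FPKM around a median of 750 FPKM in males and from 1589 to 2790 FPKM around 2035 FPKM in females (log2 difference −1.21, SE 0.29, limma adjusted p = 0.101). A single male library, testosterone replicate 3 at 2020 FPKM, lay in the female range. Without it the gene passed (limma adjusted p = 0.00736), as did rank 58. Leaving out the value most against a difference favours such a pass. Rank 69 did not pass in the 11 other single omissions or under the 8 other settings. Rank 41 ran from 1820 to 2576 FPKM in males and from 797 to 1928 FPKM in females (log2 difference 0.75, SE 0.19, limma adjusted p = 0.119), and it passed with quantile-normalized values (limma adjusted p = 0.0289). It did not pass in any of the 12 single omissions or under the 7 other settings.

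In the hypothalamus limma found 0 of the 100 genes and 0% of 13569 genes for sex, with 5 of the 100 and 9.93% of all genes at an unadjusted p under 0.05. Among all genes this count of 0 became 93 of 13575 when the library that stood apart was omitted and 96 of 13612 when the nucleus taenia libraries joined the fit, while the 100 genes stayed at 0 in both. The median log2 difference of male from female was −0.07 for the 100 genes, 0.14 without the library that stood apart and −0.21 without replicate 1 of its group, so its direction rested on single libraries. Leaving out 1 library gave 2 to 8 of the 100 at an unadjusted p under 0.05. Ranks 21 and 59 had the lowest p. Rank 21 ran from 302 to 4574 FPKM around a median of 822 FPKM in males and from 1449 to 15012 FPKM around 2704 FPKM in females, with the 15012 FPKM in the library that stood apart (log2 difference −1.84, SE 0.58, limma adjusted p = 0.354). Rank 59 had a log2 difference of −1.32 (SE 0.48, limma adjusted p = 0.415).

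The sex difference of ranks 69 and 58 had opposite signs in the regions. In the hypothalamus rank 69 ran from 718 to 1992 FPKM in males and from 351 to 2169 FPKM in females, with the 351 FPKM in the library that stood apart. The difference between regions in the sex difference was 1.77 on the log2 scale for rank 69 (SE 0.47) and 2.17 for rank 58 (SE 0.65), both with a limma adjusted p of 0.691. In that test 0 of the 100 and 0% of all genes passed, with 7 of the 100 (3 to 14 when 1 library was left out) and 6.05% of all genes at an unadjusted p under 0.05. The median of the 100 for this difference was −0.02, and 0.22 without the library that stood apart.

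Testosterone was compared with control first over all 24 libraries, with the regions counted as separate samples. By limma 0 of the 100 genes and 0% of 13612 genes passed, and 8 of the 100 stood at an unadjusted p under 0.05 beside 7.27% of all genes. The 8 became 6 to 15 when 1 library was left out, the 15 without female testosterone hypothalamus replicate 1. The median log2 difference was 0.01 for the 100 genes and 0.00 for all. Without the library that stood apart it was −0.13 for the 100 genes and without replicate 1 of its group 0.06. With all 24 libraries the 95% interval lay inside a 2-fold difference for 84 of the 100 and for 81.5% of all genes. A treatment difference of the same direction in all 4 combinations of sex and region was found for 6 genes that were higher, ranks 12, 15, 19, 28, 34 and 65, and for 5 that were lower, ranks 29, 35, 46, 85 and 86. Among all tested genes the shares were 7.85% and 7.13%.

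Rank 5, ENSTGUG00000000151, had the lowest p for treatment. In the male hypothalamus it was at 3527, 5660 and 4382 FPKM with testosterone and at 7610, 8097 and 6862 FPKM in controls. In the female hypothalamus it was at 2645, 5354 and 1708 FPKM with testosterone and at 9861, 8862 and 8264 FPKM in controls. In the female nucleus taenia it was at 4383, 3661 and 2629 FPKM with testosterone and at 7069, 5283 and 7313 FPKM in controls. In these 3 combinations every testosterone library lay below every control library. Taken singly, groups did not overlap in either direction for 16.7%, 9.4% and 14.2% of all tested genes there. The share of genes separated in all 3 was not computed, and this gene was picked for its low p.

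In the male nucleus taenia rank 5 did not follow the same order, with 6332, 8383 and 5172 FPKM after testosterone and 10857, 3286 and 5296 FPKM in controls. Over all groups it was at 4486 ± 1843 FPKM with testosterone and 7388 ± 2082 FPKM in controls (SD, n = 12 each), a log2 difference of −0.78 (SE 0.21). Its limma adjusted p was 0.607 over 13612 genes, so the difference did not pass. Leaving out any 1 library gave log2 differences of −0.89 to −0.66. The treatment difference of rank 5 differed between males and females by 0.98 on the log2 scale (SE 0.42, limma adjusted p = 0.999).

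Rank 70 was the next by p, at 1099 ± 284 FPKM with testosterone and 1636 ± 561 FPKM in controls (SD, n = 12 each), a log2 difference of −0.55 with an SE of 0.18 and a limma adjusted p of 0.674. Ranks 70 and 35 belonged to 1 of the correlated pairs (r = 0.907).

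Within the 4 combinations of sex and region limma likewise found 0 of the 100 genes and 0% of all genes for treatment. At an unadjusted p under 0.05 stood 5 of the 100 in the male hypothalamus, 11 in the male nucleus taenia, 9 in the female hypothalamus and 3 in the female nucleus taenia. The shares of all tested genes were 6.14%, 2.79%, 5.14% and 2.94%. Leaving out 1 library moved the 5 of the male hypothalamus to between 2 and 6, the 11 of the male nucleus taenia to between 2 and 18, the 9 of the female hypothalamus to between 4 and 14 and the 3 of the female nucleus taenia to between 0 and 15. Among all genes at most 17 passed when 1 library was left out, in the male hypothalamus, and 0 of the 100 did in any of the 4. With 3 libraries a group, the 95% intervals of the 100 genes were wider. Their median reach to either side was 1.10 (2.14-fold) in the hypothalamus and 0.740 (1.67-fold) in the nucleus taenia, beside 0.905 and 0.794 for all genes. The hypothalamus fit pooled the spread over both sexes, so the library that stood apart also entered the intervals of the male comparison. The single omissions of the male comparison did not leave that library out.

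In the male hypothalamus 70 of the 100 genes were lower with testosterone, with a median log2 difference of −0.20 beside −0.05 for all genes, of which 45.3% were higher. The median of the 100 was −0.08 with quantile-normalized values, −0.33 without testosterone replicate 2 and −0.10 without testosterone replicate 1. The correlated pair had the lowest p. Rank 59 was at 206, 215 and 439 FPKM with testosterone and 3006, 1702 and 805 FPKM in controls (log2 difference −2.57, SE 0.68, limma adjusted p = 0.752). Rank 21 was at 305, 302 and 634 FPKM with testosterone and 4574, 2627 and 1010 FPKM in controls (log2 difference −2.56, SE 0.81, limma adjusted p = 0.752). Neither gene's groups overlapped. Groups did not overlap for 16 of the 100 genes, and for 16.7% of all genes.

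In the male nucleus taenia 72 of the 100 genes were higher with testosterone, beside 51.9% of all genes. The median log2 difference was 0.24 for the 100 genes and 0.02 for all genes. With quantile-normalized values the median of the 100 genes was −0.03. Giving every library the same distribution evens out the highest values, so that setting cannot decide whether this direction depends on the scale. Leaving out 1 library gave medians of 0.18, without control replicate 2, to 0.39, without testosterone replicate 1. Groups did not overlap for 16 of the 100, 15 of them higher, while for all genes 3.28% did not overlap and were higher, and 5.65% did not overlap in either direction. These libraries entered the mean that chose the 100 genes, which can favour genes high in a library of large values. Testosterone replicate 2 had a total of 1158298 FPKM, below only the library that stood apart, and a mean r of 0.844 with the other libraries. The list was kept the same when a library was left out. Whether the larger share among the 100 comes from their choice was not tested. Rank 26 was at 2243, 3859 and 2840 FPKM with testosterone and at 1714, 1538 and 1762 FPKM in controls (log2 difference 0.80, SE 0.24, limma adjusted p = 1). Rank 19 was at 2387, 3724 and 2962 FPKM with testosterone and 1847, 1617 and 1946 FPKM in controls (log2 difference 0.73, SE 0.24, limma adjusted p = 1). Of the largest correlated set, 6 of the 7 genes were among the 16. That set was built from correlations over libraries that include these, so its genes tend to share the call. The 16 genes are thus not independent of each other. The testosterone libraries here also held a larger total FPKM outside the 100 genes in replicates 2 and 3, 839228 and 825347, than the 3 controls at 698263 to 745640.

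In the female hypothalamus the direction of the 100 genes rested on 1 library. The median log2 difference of testosterone from control was 0.06 with all libraries, −0.47 without female testosterone hypothalamus replicate 3 and 0.34 without replicate 1 of the same group. Groups did not overlap for 10 of the 100 genes, all of them lower with testosterone, beside 4.51% of all genes lower and 9.4% in either direction. Rank 5 had a log2 difference of −1.63 (SE 0.44, limma adjusted p = 0.664). Rank 77 was at 772, 683 and 302 FPKM with testosterone and at 1399, 1435 and 1083 FPKM in controls (log2 difference −1.25, SE 0.37, limma adjusted p = 0.664). Without replicate 3 these differences were −1.25 for rank 5 and −0.83 for rank 77.

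In the female nucleus taenia the median log2 difference of the 100 genes was −0.10 beside 0.03 for all genes. With quantile-normalized values, which even out the most abundant genes between libraries, the median of the 100 was 0.00. It was −0.19 without control replicate 2 and −0.03 without control replicate 3. Groups did not overlap for 13 of the 100 genes and for 14.2% of all genes. Rank 41 was at 1126, 1534 and 797 FPKM with testosterone and at 1928, 1517 and 1769 FPKM in controls (log2 difference −0.64, SE 0.26, limma adjusted p = 0.969). Rank 39 was at 876, 3535 and 1201 FPKM with testosterone and at 224, 681 and 130 FPKM in controls (log2 difference 2.51, SE 1.09, limma adjusted p = 0.969), and its groups did not overlap.

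The treatment difference was also compared between the sexes over both regions. By limma 0 of the 100 genes and 0% of all genes passed, with 3 of the 100 and 3.53% of all genes at an unadjusted p under 0.05. The 3 became 14 without the library that stood apart, and 0 to 14 over all single omissions. Rank 44 had the lowest p, with a log2 difference between males and females of 0.68 (SE 0.29, limma adjusted p = 0.999).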

How the data were processed

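The deposited table holds FPKM for 17475 genes, which the authors computed. The submitters' processing notes name Cufflinks 2.2.1, TopHat2 2.1.1 and cutadapt 1.9.1, and the build of the genome is not given in the sources used here. Per the labels' protocols the libraries were made with a KAPA stranded mRNA kit. The table held 0 columns not tied to a sample, and 24 methylation samples were not analysed here. FPKM removes the number of reads behind a value, so absolute depth is unknown. The rough relative depth was fitted to the steps of values under 0.2 FPKM in 276 pairs of libraries, of which 29.3% lay within 3% of the fit.

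Tests were run in R 4.3.3 with limma 3.58.1, on log2 values of FPKM + 1, with 1 mean per group, trend moderation and Benjamini-Hochberg adjustment at 0.05 over all genes of mean FPKM at least 1. All 24 libraries were fitted for region, sex, treatment and interactions, and the 12 libraries of a region for comparisons within it. Fold changes on this scale understate those of low genes. Shares of total FPKM were tested by exact permutation within the strata of the other factors. The scripts were tested on simulated data. Figures were drawn with matplotlib 3.10.9.

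The 100 genes and all lists and rules were chosen with earlier results of these data known. Genes described singly were the 10 of highest mean, the 5 lowest and the 5 highest in within-group SD, and the 2 of lowest p in each contrast, since none passed. Further genes (ranks 4, 34, 35, 50, 58, 67 and others in correlated sets) were picked after their values were seen. Lists of cell type markers and gene families by symbol could not be applied. The RefSeq gene table (assembly bTaeGut7.mat) gave no identifiers of the Ensembl type, so a match of more than 0 of 17475 was not possible. No sequences could be given for the same reason.

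Replicate numbers are shared between groups, so same-numbered libraries were correlated in their deviations from group means across genes. Among the treatment and sex comparisons, every pair lay above 0.1 for treatment in the female nucleus taenia only (r = 0.151, 0.171 and 0.232). This hint of pairing, from the data alone, entered only the fits with the replicate block. The treatment values given above for that group are from the unpaired fit. Between the regions every pair lay above 0.1 in male controls (r = 0.532 to 0.669) and female testosterone birds (r = 0.218 to 0.333) but not in the other groups. Alternatives were median-ratio scaling, quantile normalization, pseudocounts of 0.1 and 5, no filter or one at a mean of 5 FPKM, the replicate block, other sets of libraries in the fit, other sizes and rankings of the list, and leaving out each library.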

Additional observations from a re-analysis of the deposited data

Results flagged for a closer look

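In 16 checks of whether the most extreme of the 6 libraries of a sex and region lay far from the next, 2 libraries did, where chance gives about 1 in 20, or 0.8. Over the 100 genes, the mean Pearson r with the other 23 libraries was 0.421 for female testosterone hypothalamus replicate 3, against 0.674 in the next of its 6. It was 0.439 for female control nucleus taenia replicate 2, against 0.649 in the next of its 6. The latter value moved with 1 gene, rank 52, which was at 2540 FPKM in that library and at 0 in most others. Without that gene, a setting added after the data were seen, its mean r over 99 genes was 0.643, within the 0.509 to 0.694 of the 23 libraries. The mean r of female testosterone hypothalamus replicate 3 was 0.212 without that gene. The flagged libraries were not the lowest over the 100 genes. Male testosterone nucleus taenia replicate 2 (0.226), male control hypothalamus replicate 1 (0.349) and male control nucleus taenia replicate 1 (0.393) were lower. They were not flagged by the distance to the next of their 6. Without rank 52 their mean r was 0.509, 0.620 and 0.647.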

How the results depend on the processing

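For region, treatment and the interactions, and for sex in the hypothalamus, 0 of the 100 genes passed in limma under every alternative run. For sex over both regions the count of 0 became 1 with quantile normalization (rank 80), 1 with the replicate block (rank 68) and 0 to 2 without 1 library. For sex in the nucleus taenia it became 1 with quantile normalization (rank 41) and 0 to 2 without 1 library, and the count of all genes there ran from 65 to 245 without 1 library and was 77 with the block. The replicate block changed no other call of the 100 genes. In the female nucleus taenia, the block in a fit of its 6 libraries, a fit added after the data were seen, gave a treatment call for 0 of the 100, and 3 reached an unadjusted p below 0.05. Same-numbered libraries of the regions had a median r of 0.283, with 10 of 12 pairs above 0.1 and the own number the best match in 9 of 12. This was a hint from the data and not from the design, and the main region comparison was not taken as paired. Tests of sex and treatment over both regions did not allow for such pairs either. For region the block was each combination of sex, treatment and replicate number, so same-numbered libraries were fitted as pairs. In the other limma comparisons it was the replicate number alone. With the paired block the region comparison had 0 genes called, 2 of the 100 and 1069 genes at an unadjusted p under 0.05 (855 without it), and the share by region an exact permutation p of 0.543 (adjusted 0.730). Leaving out 1 library, the share differences ran from −1.57 to −0.200 points for region, −1.75 to −0.374 for sex and −1.28 to 0.0925 for treatment, the last reversed without female testosterone hypothalamus replicate 1. Steady genes ran from 18 to 39, swinging ones from 15 to 28 and the median within-group SD from 0.397 to 0.540, the 39, 15 and 0.397 all without female testosterone hypothalamus replicate 3. Ranking by the median gave 23 steady and 20 swinging genes. The cause of these shifts was not tested.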
